A study of Mus musculus with 12 samples.

Results

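The genes described here are 10 genes of the kidney's proximal tubule that serve protein endocytosis and the uptake of phosphate, glucose and lactate, taken by symbol from a table of 35275 genes. They are the endocytic receptor genes *Lrp2*, *Cubn*, *Amn* and *Dab2*, the phosphate cotransporter genes *Slc34a1* and *Slc34a3*, the glucose and lactate cotransporter genes *Slc5a2* and *Slc5a12*, and the hormone receptor genes *Kl* and *Pth1r*. Each symbol had 1 row in the table. In mm10 coordinates, *Lrp2* lies at chr2:69424340-69586065, *Cubn* at chr2:13276338-13491924, *Amn* at chr12:111271111-111276426 and *Dab2* at chr15:6299788-6440712. *Slc34a1* lies at chr13:55399648-55414695, *Slc34a3* at chr2:25228898-25234364, *Slc5a2* at chr7:128265657-128272430, *Slc5a12* at chr2:110597298-110647779, *Kl* at chr5:150952607-150993809 and *Pth1r* at chr9:110722088-110743686. The values below count reads over each whole gene, and all 10 genes passed the filter on low counts in every comparison. They were chosen by their function and not by their values, although earlier results of these data were known when they were chosen. Poly(A) RNA from kidney tissue of 12 C57BL/6J mice at 6 months of age was sequenced, 4 mice in each of 3 groups, and the labels give 2 females and 2 males in each group. WT mice carried no engineered allele. RC/RC mice (Pkd1RC/RC) were homozygous for a hypomorphic missense knock-in allele of *Pkd1*, the gene most often mutated in autosomal dominant polycystic kidney disease, and develop slowly growing cysts. RC/RC:*Casp1*KO mice carried the same *Pkd1* alleles and were also homozygous for a TALEN deletion, in every tissue, of the part of *Casp1* that encodes the active-site cysteine of Caspase-1 and of the adjoining splice donor. Only 1 deletion allele was studied, so an effect of the allele and an effect of losing Caspase-1 cannot be told apart. The reads counted per mouse ranged from 18019819 to 24869454, and the 10 genes had between 892 and 145277 reads in a mouse. The WT and the RC/RC:*Casp1*KO mice fell into pairs. The chi-square per degree of freedom between the counts of 2 WT mice, over genes, was 17.7 for B6_2 and B6_3 and 16.4 for B6_4 and B6_6, beside 89.8 to 127 for the other pairs. Among RC/RC:*Casp1*KO mice it was 15.7 for Del3_60 and Del3_105 and 31.8 for Del3_42 and Del3_70, beside 67.1 to 93.4, and among RC/RC mice it was lowest for RC140 and RC143 (37.2). The columns do not give the sex of a mouse, and whether these pairs are the sexes was not tested.

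The proximal tubule reclaims most of what the glomerulus filters. Megalin (*Lrp2*) and cubilin (*Cubn*) are very large receptors of its brush border that bind filtered proteins, vitamin carriers and albumin. Cubilin has no membrane anchor of its own and reaches the surface with amnionless (*Amn*), and Disabled-2 (*Dab2*) is the adaptor that links megalin to the clathrin machinery. NaPi-IIa (*Slc34a1*) and NaPi-IIc (*Slc34a3*) take up phosphate with sodium, SGLT2 (*Slc5a2*) takes up most filtered glucose, and SMCT2 (*Slc5a12*) takes up lactate and other monocarboxylates. The PTH receptor (*Pth1r*) and Klotho (*Kl*), the coreceptor for FGF23, carry the hormonal signals that withdraw the phosphate cotransporters from the brush border.

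The stretches of 150 bases before the RefSeq start of 3 of these genes are shown, *Lrp2* and *Cubn* because they had the most alike values over the mice, and *Slc34a3* because it was the only one of the 8 genes with a RefSeq window that held the motif searched. They are RefSeq sequences of GRCm38.p6, the build that mm10 names, and capitals mark a nuclear receptor half-site (AGGTCA) on either strand. The *Lrp2* stretch is chr2:69586030-69586179 and that of *Cubn* is chr2:13491877-13492026, both on the minus strand, and neither holds the motif. The *Slc34a3* stretch is chr2:25234235-25234384, also on the minus strand. The RefSeq starts lie inside the gene spans given above, which reach further upstream, so that 36 bases of the *Lrp2* stretch, 48 of the *Cubn* stretch and 130 of the *Slc34a3* stretch fall within those spans.
Lrp2: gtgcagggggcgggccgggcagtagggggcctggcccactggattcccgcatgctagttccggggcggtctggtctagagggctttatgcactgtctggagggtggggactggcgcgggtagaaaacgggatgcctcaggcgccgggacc
Cubn: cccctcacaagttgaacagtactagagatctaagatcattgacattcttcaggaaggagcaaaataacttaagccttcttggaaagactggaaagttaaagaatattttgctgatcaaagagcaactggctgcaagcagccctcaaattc
Slc34a3: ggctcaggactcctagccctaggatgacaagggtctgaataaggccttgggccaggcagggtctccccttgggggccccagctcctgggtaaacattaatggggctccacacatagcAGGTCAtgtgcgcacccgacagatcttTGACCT
The *Slc34a3* stretch holds 2 matches to the half-site, at -33 and -6 from the RefSeq start, both inside that span. Among all 32851 RefSeq promoter windows of 300 bases, 16.3% hold AGGTCA, as does 1 of the 11 windows of the 8 genes. These matches are a description of the letters. *Lrp2* and *Cubn* differ in base composition there, with 65.0% and 44.3% G and C in the 300 bases around the start, beside a median of 52.7% over all windows. Of the 10 genes, 8 had a window in the RefSeq table, and *Slc5a2* and *Slc5a12* did not.

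In WT kidneys the order of the genes was led by *Slc34a1* with 1896 ± 264 FPKM (SD, n = 4). FPKM here is reads divided by gene length and by library size times its TMM normalization factor. *Pth1r* followed with 255 ± 18.2 FPKM, and the ranges of these 2 genes did not overlap with each other or with the next gene. *Slc5a2* (206 ± 21.9 FPKM), *Kl* (173 ± 13.5), *Lrp2* (148 ± 52.5), *Dab2* (135 ± 11.4), *Slc5a12* (117 ± 18.1) and *Amn* (98.4 ± 7.06) came next, each with a range that overlapped that of its neighbour. *Cubn* (47.1 ± 13.6 FPKM) and *Slc34a3* (41.1 ± 7.07) were lowest, overlapped each other and stood apart from *Amn*. In RC/RC kidneys *Lrp2* had rank 7 with 70.9 ± 25.3 FPKM and *Cubn* rank 10 with 22.5 ± 7.36 FPKM. *Lrp2* had rank 3 in RC/RC:*Casp1*KO kidneys with 203 ± 44.1 FPKM, and its range overlapped those of *Pth1r* above it and *Slc5a2* below it. *Slc34a1* and *Pth1r* stood first and second in all 3 groups.

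*Casp1*, the targeted gene, was lowest in the RC/RC:*Casp1*KO mice. It was at 2.06, 1.29, 1.30 and 1.41 CPM (counts scaled to the library's total reads times its TMM normalization factor) in WT mice B6_2, B6_3, B6_4 and B6_6, at 3.37, 3.84, 4.26 and 2.62 CPM in RC/RC mice RC105, RC139, RC140 and RC143, and at 0.66, 0.38, 1.05 and 0.66 CPM in RC/RC:*Casp1*KO mice Del3_42, Del3_60, Del3_70 and Del3_105. The same order of mice is kept below wherever 4 values are given for a group. No RC/RC:*Casp1*KO mouse reached the lowest RC/RC or WT mouse. The log2 fold change was -2.35 ± 0.32 against RC/RC (SE, edgeR adjusted p = 0.00514) and -1.12 ± 0.35 against WT, which was not called (adjusted p = 0.128). *Casp1* was higher in RC/RC than in WT (1.21 ± 0.25, edgeR adjusted p = 0.0142). These counts cover the whole gene and not the deleted bases alone. *Pkd1* was not called in any comparison.

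**Figure D1:**
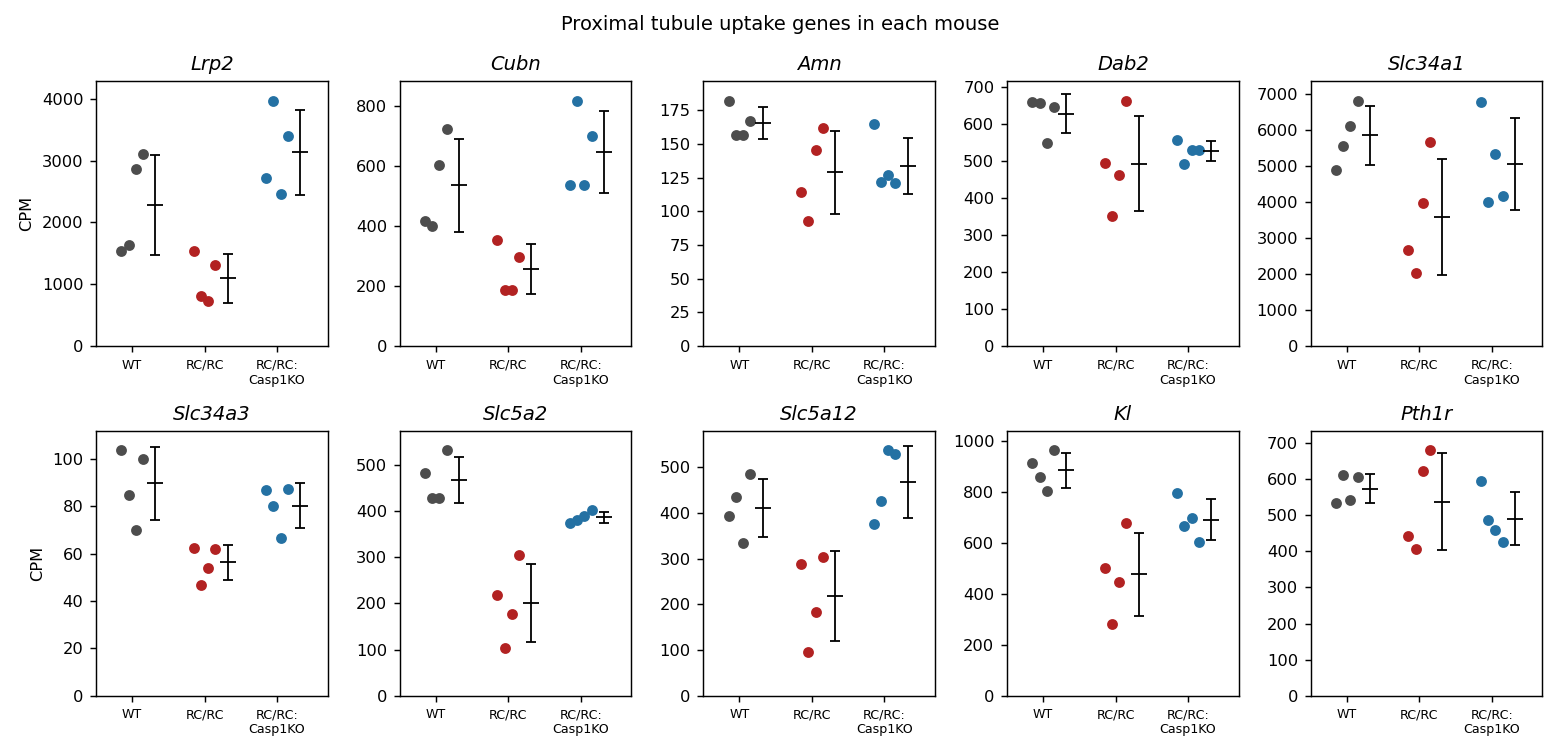
CPM (linear axis from 0) of each gene in each of the 12 mice; points are mice, from left to right in the order of the text, and the bar beside them is the group mean ± SD (n = 4). *Cubn*, *Slc34a3*, *Slc5a2*, *Slc5a12* and *Kl* have every RC/RC mouse below every WT mouse, while *Pth1r* overlaps throughout.

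The comparison of RC/RC with WT kidneys asked how the uptake genes stand in cystic disease. All 10 genes had a negative log2 fold change (7 when scaled to general proximal tubule genes), and 4 of them, *Slc5a2*, *Cubn*, *Kl* and *Slc34a3*, fell by the test (edgeR, Benjamini-Hochberg adjusted p below 0.05), while none rose. Of the 15243 genes tested 3.18% were called lower, 9.76% higher and 12.9% in either direction. The median log2 fold change of the 10 genes was -0.81, beside -0.02 for all tested genes. In 5 of the 10 genes every RC/RC mouse was below every WT mouse, beside 6.58% of all tested genes. The shares differ in size from the background, but the genes were not picked at random and no test of the list was made. In RNA of kidney tissue, fewer proximal tubule cells and less of an RNA per cell cannot be told apart.

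Among the endocytic receptor genes, *Cubn* fell. *Cubn* was at 417, 401, 603 and 722 CPM in WT mice and at 354, 187, 186 and 298 CPM in RC/RC mice. Every RC/RC mouse was below every WT mouse, with means of 536 ± 154 and 256 ± 83.7 CPM (SD, n = 4), and the log2 fold change was -1.08 ± 0.27 (edgeR adjusted p = 0.0319). The call was lost without RC139 (adjusted p = 0.0791), RC140 (0.0900), B6_4 (0.0609) or B6_6 (0.0892).
*Lrp2*, which works with cubilin, was at 1538, 1638, 2858 and 3102 CPM in WT mice and at 1541, 802, 733 and 1307 CPM in RC/RC mice. Mouse RC105 was level with the lowest WT mouse, B6_2, so the groups overlapped. The WT values fell into the pairs named above, with B6_2 and B6_3 low and B6_4 and B6_6 high, and the log2 fold change of -1.07 ± 0.32 was not called (edgeR adjusted p = 0.0591). It was called without RC105 (adjusted p = 0.0475) or B6_2 (0.0469), by DESeq2 (0.00430) and in a fit of all 12 mice (0.0295). The partners of these receptors had smaller log2 fold changes, and that difference between genes was not tested. *Amn* was at 182, 157, 157 and 167 CPM in WT mice and 115, 92.7, 146 and 162 CPM in RC/RC mice, with a log2 fold change of -0.37 ± 0.17 (edgeR adjusted p = 0.187). *Dab2* was at 659, 657, 549 and 646 CPM in WT mice and 496, 351, 463 and 663 CPM in RC/RC mice, with -0.36 ± 0.19 (adjusted p = 0.243). For both, RC143 lay within the WT range or above it.

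Of the phosphate cotransporter genes, *Slc34a3* fell and the far more abundant *Slc34a1* was not called. *Slc34a3* was at 104, 84.9, 70.1 and 100.2 CPM in WT mice and at 62.6, 46.9, 54.2 and 62.0 CPM in RC/RC mice. The groups did not overlap, and the log2 fold change was -0.68 ± 0.15 (edgeR adjusted p = 0.0160), which was lost only when B6_6 was left out (0.0517) among the 8 mice. *Slc34a1* was at 4894, 5555, 6113 and 6806 CPM in WT mice and at 2671, 2034, 3969 and 5665 CPM in RC/RC mice. Mouse RC143 was above 2 WT mice, and the log2 fold change of -0.71 ± 0.31 was not called (edgeR adjusted p = 0.159), though it was called without RC143 (0.0292). For *Slc34a1*, B6_4 and B6_6 were above B6_2 and B6_3, and RC140 and RC143 were above RC105 and RC139. Part of its spread thus lay between pairs of mice, which no fit took into account.

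The glucose cotransporter gene *Slc5a2* had the largest fall of the 10. It was at 483, 429.6, 428 and 532 CPM in WT mice and at 219, 103, 177 and 304 CPM in RC/RC mice. Every RC/RC mouse was below every WT mouse, the means were 468 ± 49.8 and 201 ± 84.0 CPM, and the log2 fold change was -1.23 ± 0.28 (edgeR adjusted p = 0.0199). It was lost without RC140 (0.0640) or B6_6 (0.0580). The table also lists BC017158 on the opposite strand across *Slc5a2*, with 5470 reads in all beside 90715 for *Slc5a2*, and whether the counting used strand is not given in the sources used here. *Slc5a12* was at 394, 434, 333 and 484 CPM in WT mice and at 289, 95.2, 184 and 305 CPM in RC/RC mice. The groups did not overlap, but its log2 fold change of -0.93 ± 0.32 was not called (edgeR adjusted p = 0.0901). DESeq2 (0.0189) and the fit of all 12 mice (0.0477) called it.

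Of the hormone receptor genes, *Kl* fell and *Pth1r* was not called. *Kl* was at 916, 861, 805 and 964 CPM in WT mice and at 501, 281, 445 and 678 CPM in RC/RC mice. The groups did not overlap and the log2 fold change was -0.90 ± 0.24 (edgeR adjusted p = 0.0355), but the call was lost without RC105, RC140, B6_2, B6_3, B6_4 or B6_6, with adjusted p-values from 0.0551 (without B6_4) to 0.0996 (without RC140). *Pth1r* was at 534, 612, 543 and 606 CPM in WT mice and at 442, 405, 623 and 679 CPM in RC/RC mice, with 2 RC/RC mice above every WT mouse. Its log2 fold change was -0.10 ± 0.18 (edgeR adjusted p = 0.748).

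The 4 RC/RC mice differed among themselves. The median of the 10 genes, as a percent of the WT mean, was 35.0% in RC139, 55.3% in RC140, 68.3% in RC105 and 75.3% in RC143. In RC139 all 10 genes were below the lowest WT mouse, and *Slc5a2* was at 22.0% of the WT mean. In RC143 6 genes were below the lowest WT mouse and 2 above the highest. RC139 and RC140 also had the highest mitochondrial shares of all mice, 12.1% and 11.6%. These shares were 8.68% in RC105 and 9.37% in RC143, and their part in the values was not tested.

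The scale of the comparison matters for these calls. Of 27 general proximal tubule genes (*Fbp1*, *Miox*, *Slc27a2* and others) none was called in RC/RC against WT, but 26 had negative log2 fold changes, with a median of -0.45. Their summed level was 29843, 34124, 31558 and 33947 CPM in WT mice and 19021, 16630, 27531 and 34062 CPM in RC/RC mice, with RC139 and RC105 lowest and RC143 above 3 of the WT mice. When the libraries were scaled to these genes, only *Slc5a2* remained called (log2 fold change -0.84, adjusted p = 0.0196). *Cubn* was then at -0.60 (adjusted p = 0.130), *Kl* at -0.50 (0.0915) and *Slc34a3* at -0.20 (0.501), and *Amn*, *Dab2* and *Pth1r* turned to 0.05, 0.07 and 0.33. That scaling moved the median of the 10 genes to -0.42 and that of all tested genes to 0.48. In RC/RC:*Casp1*KO mice the summed level was 32455, 24651, 25567 and 23452 CPM, and none of the 27 genes was called against RC/RC (median 0.23).

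**Figure D2:**
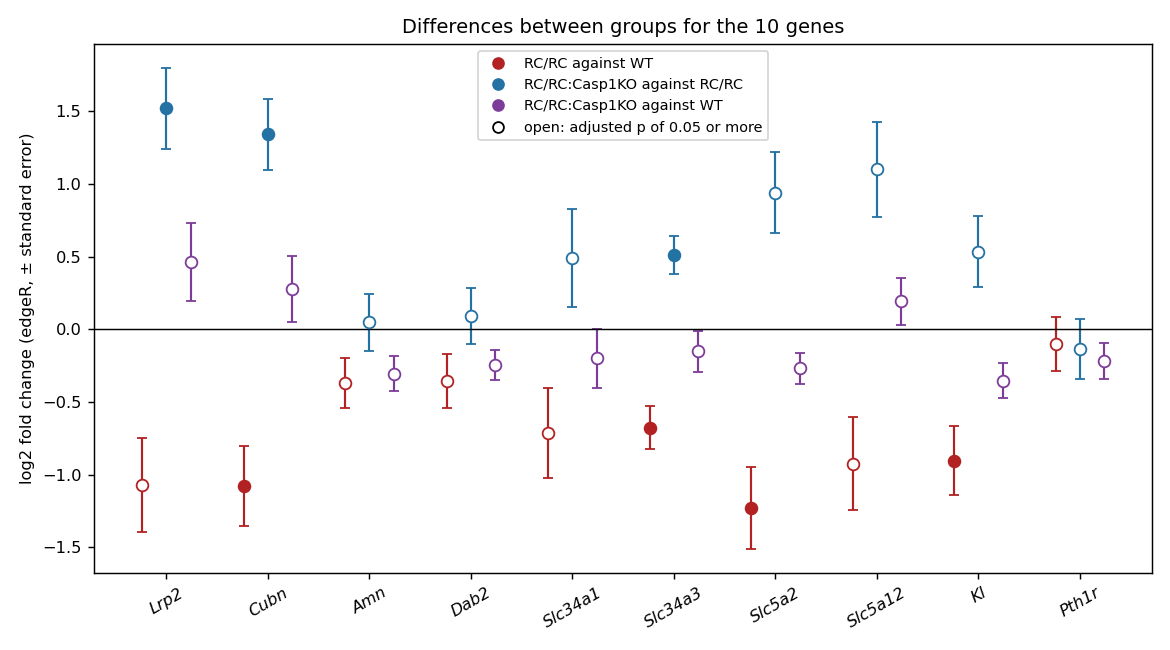
Log2 fold change (edgeR) of the 10 genes in the 3 comparisons, with bars of ± 1 standard error; filled points have an adjusted p below 0.05, and open points do not. RC/RC against WT lies below 0 for all 10, RC/RC:Casp1KO against RC/RC lies highest for *Lrp2* and *Cubn*, and RC/RC:Casp1KO against WT stays between -0.35 and 0.46 with no filled point.

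When RC/RC:*Casp1*KO kidneys were compared with RC/RC kidneys, to ask what loss of Caspase-1 changes in cystic mice, *Lrp2*, *Cubn* and *Slc34a3* rose and none of the 10 genes fell. Of the 15428 genes tested 7.23% were called higher, 4.41% lower and 11.6% in either direction. The median log2 fold change of the 10 genes was 0.52, beside -0.03 for all tested genes (0.79 beside -0.01 without RC143, and 0.35 beside -0.29 when scaled to general proximal tubule genes), and in 5 of the 10 every RC/RC:*Casp1*KO mouse was above every RC/RC mouse, beside 11.3% of all tested genes. The RC/RC mice are shared by this comparison and the one with WT, so the directions of the 2 are not independent.

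*Lrp2* had the largest difference. It was at 2712, 3972, 2463 and 3394 CPM in RC/RC:*Casp1*KO mice, all above the highest RC/RC value of 1541 CPM. The means were 3135 ± 683 and 1096 ± 392 CPM (SD, n = 4), and the log2 fold change was 1.52 ± 0.28 (edgeR adjusted p = 0.0144). *Cubn* was at 536, 818, 536 and 699.7 CPM, above the highest RC/RC value of 354 CPM, with a log2 fold change of 1.34 ± 0.25 (edgeR adjusted p = 0.0146). Both stayed called when each of the 8 mice was left out in turn. Scaled to the general proximal tubule genes, they were not called (*Lrp2* 1.28, adjusted p = 0.0796; *Cubn* 1.11, 0.0861). *Amn* (165, 121, 127 and 121 CPM) and *Dab2* (557, 492, 529.6 and 530.0 CPM) overlapped the RC/RC mice, and only Del3_42 for *Amn* lay above the highest RC/RC mouse, with log2 fold changes of 0.05 ± 0.19 and 0.09 ± 0.19 (edgeR adjusted p = 0.890 and 0.771). Scaled to the general proximal tubule genes, these turned to -0.16 and -0.10.

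*Slc34a3* was at 87.0, 80.2, 66.7 and 87.4 CPM, above the highest RC/RC value of 62.6 CPM. Its log2 fold change was 0.51 ± 0.13 (edgeR adjusted p = 0.0382), a call that was lost without RC139, RC140, Del3_42, Del3_60 or Del3_105, with adjusted p-values from 0.0772 to 0.109. It was lost as well when scaled to the general proximal tubule genes (0.26, adjusted p = 0.452). *Slc34a1* was at 6759, 4003, 5328 and 4155 CPM and overlapped the RC/RC mice, with a log2 fold change of 0.49 ± 0.34 (edgeR adjusted p = 0.349). It was 0.82 without RC143 and 0.31 without Del3_42, and not called in either case. *Slc5a2* was at 375, 380.0, 391 and 402 CPM and *Slc5a12* at 377, 427, 537 and 529.7 CPM, in each case above every RC/RC mouse. Neither was called: their log2 fold changes of 0.94 ± 0.28 and 1.10 ± 0.33 had edgeR adjusted p-values of 0.0561 and 0.0568. DESeq2 called both (0.00568 and 0.00512), as did the fit of all 12 mice (0.0315 and 0.0343). By limma on log2(FPKM + 1), *Slc5a2* was called (adjusted p = 0.0436) and *Slc5a12* was not (0.0559). *Slc5a2* was also called without RC143 (0.0203), and *Slc5a12* without RC143 (0.0379) or RC105 (0.0486). *Kl* was at 796, 669, 697 and 603 CPM, and the group overlapped RC/RC through RC143, with a log2 fold change of 0.53 ± 0.25 (edgeR adjusted p = 0.169, and 0.0478 without RC143). *Pth1r* was at 594, 486, 458 and 425 CPM, with -0.14 ± 0.20 (adjusted p = 0.679).

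Compared with WT kidneys, the RC/RC:*Casp1*KO kidneys had none of the 10 genes called by edgeR, beside 2.03% of the 15346 genes tested. At an unadjusted p under 0.05 there were 4 (*Kl*, *Slc5a2*, *Amn* and *Dab2*, all lower), beside 21.8% of the tested genes, and DESeq2 called 2 of them (*Kl*, adjusted p = 0.0218, and *Dab2*, 0.0495). *Kl* (log2 fold change -0.35 ± 0.12, edgeR adjusted p = 0.147) and *Slc5a2* (-0.27 ± 0.10, 0.187) had every RC/RC:*Casp1*KO mouse below every WT mouse, as did 6.22% of all tested genes. *Lrp2* (0.46 ± 0.27, adjusted p = 0.341), *Cubn* (0.28 ± 0.23, 0.488) and *Slc5a12* (0.19 ± 0.16, 0.499) were the genes with positive values. These p-values do not show that the levels were the same.

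Gene length moved with the values of *Lrp2* and *Cubn*. With 15460 and 11373 bases they are among the longest genes in the table, and over all tested genes the log2 fold change varied with length. Genes of 10000 bases or more had a median of -0.22 in RC/RC against WT and 0.39 in RC/RC:*Casp1*KO against RC/RC, while genes under 1 kb had 0.18 and -0.32. *Lrp2* and *Cubn* had ranks 9 and 8 from the lowest of 295 long genes in the first comparison and ranks 5 and 10 from the highest of 299 in the second. With the length trend of each library removed, *Lrp2* was at -0.91 and *Cubn* at -0.98 in RC/RC against WT (edgeR adjusted p = 0.0182 and 0.00915). They were at 1.12 and 1.03 in RC/RC:*Casp1*KO against RC/RC (adjusted p = 0.0220 and 0.0198). In RC/RC:*Casp1*KO against WT they were at 0.20 and 0.05, and *Slc5a12* at 0.10, none of them called. The part of the length trend in these differences beyond this correction was not tested. In single mice the median deviation of genes of 10000 bases or more was -0.26, -0.20, 0.17 and 0.18 in WT. It was 0.06, -0.32, -0.40 and -0.14 in RC/RC, and 0.14, 0.22, 0.33 and 0.22 in RC/RC:*Casp1*KO. *Lrp2* had the same order of mice within WT and within RC/RC, but not within RC/RC:*Casp1*KO.

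**Figure D3:**
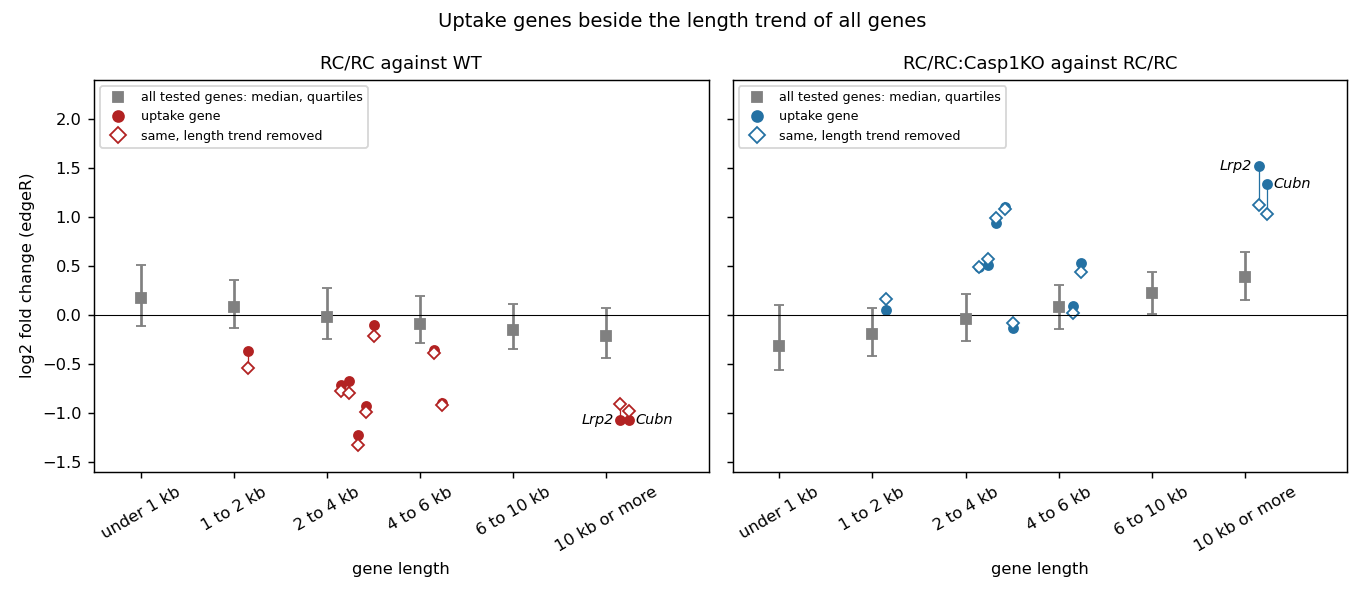
Log2 fold change (edgeR) against gene length class, in 2 comparisons. Grey squares with bars are the median and quartiles of all tested genes, filled circles are the 10 uptake genes and open diamonds the same genes after the length trend was removed; *Lrp2* and *Cubn*, in the class of 10 kb or more, move toward 0, to -0.91 and -0.98 on the left and to 1.12 and 1.03 on the right.

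Across the 12 mice the 10 genes did not vary as one. *Lrp2* and *Cubn* had a Pearson r of 0.99 for log2 CPM, *Slc5a2* and *Kl* 0.96, *Slc5a2* and *Slc5a12* 0.93, and *Amn* and *Dab2* 0.86. *Lrp2* and *Amn*, whose proteins act in one receptor complex, had 0.17, and *Lrp2* and *Pth1r* -0.11. The 10 genes were read from the same 12 libraries, which fall into 3 groups, so these values describe the pattern and carry no test. The genes outside the 10 whose log2 CPM over the 12 mice was most like their mean were *Slc2a2*, the basolateral GLUT2 glucose transporter (r = 0.979), *Ank3* (0.976), *Tpp1* (0.969), *Tmem139* (0.967) and E430025E21Rik (0.965), of 15865 genes. *Slc2a2* fell in RC/RC against WT (-0.80, edgeR adjusted p = 0.0341). It was picked here for its likeness to genes with negative log2 fold changes in the same mice. That choice favors a fall, so this p-value lends no support to the pattern.

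**Figure D4:**
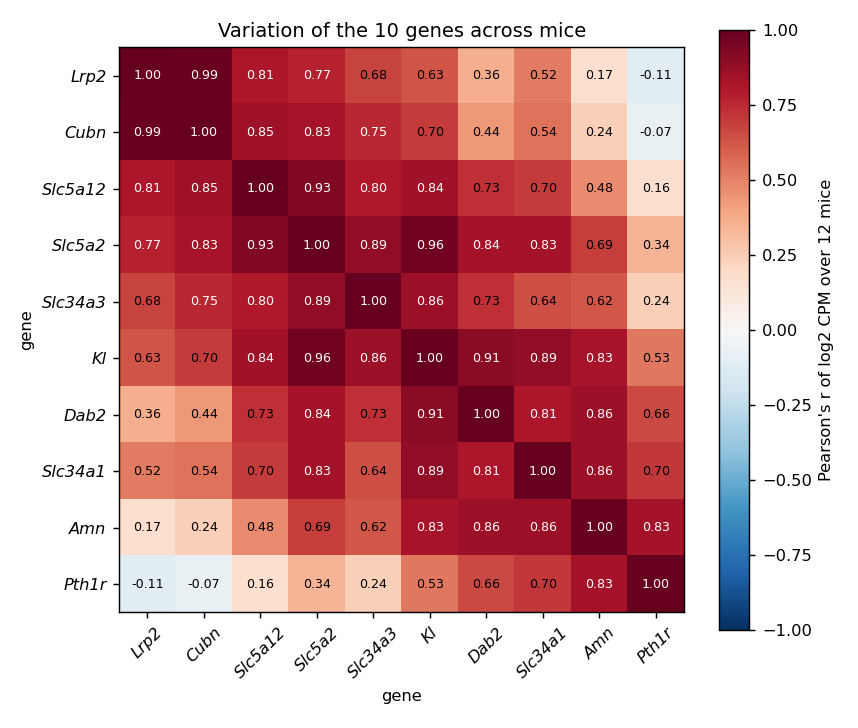
Pearson correlation of log2 CPM over the 12 mice for each pair of the 10 genes, on a color scale from -1 to 1 with the value in each square. *Lrp2* and *Cubn* form a pair at 0.99, and *Pth1r* has the lowest values, -0.11 with *Lrp2* and -0.07 with *Cubn*.

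Some other genes of the same pathways were also called in RC/RC against WT, where 9.76% of all tested genes were called higher, 3.18% lower and 12.9% in either direction. Of 23 partners in endocytosis, 2 fell and none rose: *Appl2*, an early endosome adaptor (-0.59 ± 0.17, edgeR adjusted p = 0.0467), and *Fcgrt*, the neonatal Fc receptor that recycles albumin (-0.48 ± 0.13, 0.0439). Of 20 tested genes of phosphate, PTH, FGF23 and vitamin D, 3 rose and 3 fell, with a median of -0.18. *Slc34a2*, the phosphate cotransporter of lung and gut, was at 2.77, 4.36, 2.60 and 2.53 CPM in WT mice and at 23.9, 19.0, 13.4 and 11.3 CPM in RC/RC mice (2.46 ± 0.28, edgeR adjusted p = 0.000901). *Stc1*, a stanniocalcin, also rose (1.49 ± 0.22, adjusted p = 0.00297). *Cyp24a1*, which inactivates vitamin D hormone, and *Calb1*, the distal tubule's calcium-binding protein, fell (-2.27 ± 0.59 and -2.17 ± 0.35, adjusted p = 0.0351 and 0.00415). Of 15 genes of glucose and lactate transport, 1 rose and 3 fell, the lactate transporters *Slc16a7* (-1.15 ± 0.33, edgeR adjusted p = 0.0496) and *Slc16a1* (-0.93 ± 0.17, 0.00784), beside *Slc2a2*, while *Slc2a3* rose (1.26 ± 0.28, 0.0168) from a low level. Of 9 transcription factor and coactivator genes of the proximal tubule, 2 fell: *Ppara* (-0.90 ± 0.19, edgeR adjusted p = 0.0130) and *Ppargc1a* (-0.73 ± 0.21, 0.0475). The other 7 (*Hnf4a*, *Hnf4g*, *Esrra*, *Maf*, *Nr1h4*, *Tfeb* and *Pax8*) were not called in any of the 3 comparisons.

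*Ppara* rose in RC/RC:*Casp1*KO against RC/RC (0.66 ± 0.18, edgeR adjusted p = 0.0421). *Appl2* also rose (0.88 ± 0.15, 0.00986), as did *Ocrl*, the phosphatase of the endocytic pathway mutated in Lowe syndrome (0.47 ± 0.12, 0.0361), and *Fgfr3* (0.97 ± 0.24, 0.0376). In that comparison 2 of 23 endocytosis partners rose, and the median of that list was 0.09, beside -0.03 for all tested genes. Of the 20 tested genes of phosphate, PTH, FGF23 and vitamin D 1 rose, as did 1 of the 9 regulators. None of these lists held a called fall. Of all tested genes 7.23% were called higher and 4.41% lower. None of the 15 glucose and lactate genes was called. *Fcgrt* was lower in RC/RC:*Casp1*KO against WT (-0.85 ± 0.08, edgeR adjusted p = 0.000883), as were *Cyp24a1* (-2.10 ± 0.33, 0.0195) and *Calb1* (-1.73 ± 0.35, 0.0449), while *Slc34a2* (1.72 ± 0.30, 0.0272) and *Slc2a5*, the fructose transporter (0.90 ± 0.13, 0.0134), were higher. Of the 27 general proximal tubule genes, *Dpep1* (-0.90 ± 0.13, edgeR adjusted p = 0.0134) and *Keg1* (-0.76 ± 0.13, 0.0262) were lower than in WT. Of all genes tested against WT, 2.03% were called in either direction.

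Markers of other cell states and types also differed between the groups. Of 14 injured tubule genes, 9 rose in RC/RC against WT and none fell (median 1.75, beside -0.02 for all tested genes). Of all tested genes 9.76% were called higher and 3.18% lower in that comparison. *Havcr1*, which encodes KIM-1, was at 2.87, 0.48, 1.50 and 2.48 CPM in WT mice and at 86.6, 50.3, 43.9 and 40.3 CPM in RC/RC mice. *Lcn2*, which encodes NGAL, rose by 5.54 ± 0.37 (edgeR adjusted p = 6.52e-05). All 7 fibroblast genes rose, the most for *Col1a1* (3.00 ± 0.34) and *Col3a1* (2.93 ± 0.33), and 8 of 9 macrophage and leukocyte genes rose, among them *Cd3e* (1.95 ± 0.34) and *Cd79a* (1.86 ± 0.31). Of 4 distal convoluted tubule genes 3 fell, the sodium chloride cotransporter gene *Slc12a3* (-2.03 ± 0.33, edgeR adjusted p = 0.00444) and *Pvalb* (-1.40 ± 0.26, 0.00855) the most. Of 5 podocyte genes *Nphs1* fell (-0.62 ± 0.16, edgeR adjusted p = 0.0372), and no gene of the S3 segment, thick ascending limb, principal cell, intercalated cell or endothelial lists was called. In RC/RC:*Casp1*KO against RC/RC 4 of 14 injured tubule genes, 5 of 7 fibroblast genes and 2 of 9 macrophage and leukocyte genes were lower, beside 4.41% of all tested genes. Among them were *Vim* (-1.35 ± 0.28), *Col1a1* (-1.87 ± 0.47) and *C1qa* (-1.22 ± 0.34). In the macrophage and leukocyte list 7 genes were not called, and 3 of the 9 had positive log2 fold changes. *Csf1r* was at 137, 94.6, 84.1 and 84.8 CPM in RC/RC mice and at 81.6, 136.9, 109.5 and 114.5 CPM in RC/RC:*Casp1*KO mice. *Slc12a3* was higher (1.44 ± 0.39, edgeR adjusted p = 0.0454). *Dcn* was higher in RC/RC:*Casp1*KO than in WT (1.02 ± 0.13, edgeR adjusted p = 0.00799). The summed fibroblast level, led by *Col3a1*, was 309, 220.1, 249 and 289 CPM in WT mice and 1184, 1885, 1071 and 821 CPM in RC/RC mice. This sum was highest in RC139, in which the median of the uptake genes was lowest, although *Lrp2* and *Cubn* were lowest in RC140. It was 309, 323, 714 and 464 CPM in RC/RC:*Casp1*KO mice. The summed macrophage and leukocyte level, led by *Csf1r*, ran from 134 to 153 CPM in WT mice, was 371, 320.2, 282 and 263 CPM in RC/RC mice and ran from 166 to 345 CPM in RC/RC:*Casp1*KO mice. The summed injured tubule level, led by *Spp1*, ran from 999.9 to 2814 CPM in WT mice, was 6950, 4906, 3161 and 3002 CPM in RC/RC mice and ran from 1098 to 2883 CPM in RC/RC:*Casp1*KO mice. Both of these sums were highest in RC105, in which the median of the uptake genes was 68.3% of the WT mean, and not in RC139, where it was 35.0%. The part of these cells in the differences of the uptake genes was not tested.

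**Figure D5:**
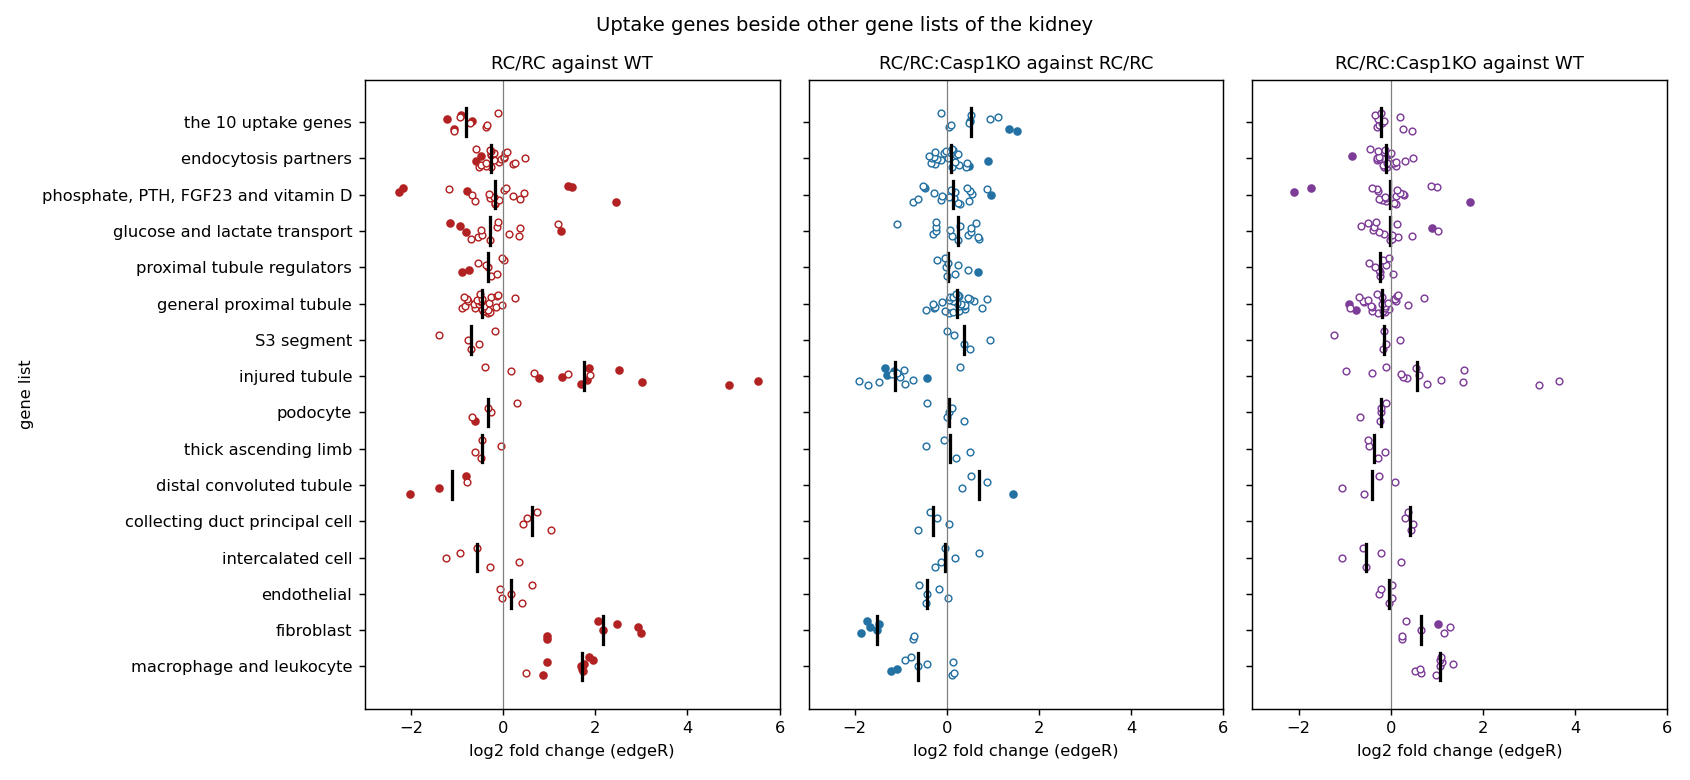
Log2 fold change (edgeR) of single genes in 16 gene lists for the 3 comparisons; each point is a gene, filled where called, and the black bar is the list's median. In RC/RC against WT the uptake genes have a median of -0.81 and the fibroblast genes one of 2.16.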

How the data were processed

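The authors had poly(A) libraries of kidney tissue sequenced; the study's methods describe a right kidney frozen in pieces, and which part gave the RNA is not given in the sources used here. The submitters' processing notes name CASAVA 1.8, STAR and mm10; the counting tool, annotation and strand setting are not given in the sources used here. The deposited counts are raw read numbers per gene and mouse, without normalization. Log2 fold changes, p-values, FPKM and group means from the authors' own comparisons were not used. The column names give each mouse's group but neither its sex nor its replicate number, so sexes were analyzed together and p-values measure the spread between mice. Columns of another or unknown group numbered 0. Counts differed by more than sampling noise in all 18 pairs of mice within groups.

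Each pair of groups (8 mice) was fitted over all genes with edgeR 4.0.16 (R 4.3.3; TMM factors, filterByExpr, quasi-likelihood F test), with Benjamini-Hochberg adjustment over all tested genes and DEGs at an adjusted p below 0.05. The standard error of a log2 fold change was obtained from its size and its F statistic. CPM is the count scaled to the reads counted in that mouse, and FPKM was computed from the counts and the deposited gene lengths. The fits were tested on simulated data, but no outcome of that test is given here, so it lends no support to the results. Near copies were sought with BLAST 2.17.0 (95% identity over 100 bases) among reference transcripts; stretches of *Slc34a1* (545 bases), *Slc5a2* (469) and *Cubn* (211) also occur in transcripts of *Pfn3*, *Rusf1* and Gm13270, and how such reads were counted is not given in the sources used here.

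The 10 genes and 15 other lists were chosen with earlier results of these data known. Genes named are the 10, *Casp1* and *Pkd1*; from each list the called genes with the largest changes (mean of 1 CPM or more), and 9 proximal tubule regulators; and the 5 most correlated genes. *Ocrl* and *Keg1* fall outside that rule, as does *Calb1* in RC/RC:*Casp1*KO against WT, and were chosen after their values were seen. Some genes that the rule names are not reported here.

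Alternatives were DESeq2 1.42.0, RLE factors, library size alone, 2 other filters, a fit of all 12 mice, limma 3.58.1 on log2(FPKM + 1), scaling to general proximal tubule genes, leaving out each mouse and, added after seeing the data, removal of the length trend (loess, span 0.5).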

Additional observations from a re-analysis of the deposited data

Results flagged for a closer look

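In 30 groups of 4 mice (10 genes in 3 groups), 2 held a mouse far from the other 3 by Dixon's ratio of gap to range at its 95% critical value, which chance passes in about 1 in 20 groups. *Amn* in RC/RC:*Casp1*KO mouse Del3_42 was at 165 CPM, with the other 3 mice between 121 and 127 CPM (ratio 0.850). *Dab2* in WT mouse B6_4 was at 549 CPM, with the other 3 between 646 and 659 CPM (ratio 0.883).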

How the results depend on the processing

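No paired analysis was possible because the columns carry no replicate number. The number of the 10 genes called in RC/RC against WT was 4, and 6 by DESeq2, 6 in the fit of all 12 mice, 1 when scaled to general proximal tubule genes, and 0 (without B6_6) to 5 (without RC143) with 1 mouse left out; it was 1 without RC140 and 2 without B6_4. Against RC/RC the RC/RC:*Casp1*KO mice had 3, and 5 by DESeq2, 5 in the fit of all 12 mice, 0 with that scaling, and 2 to 6 with 1 mouse left out (6 without RC143). Against WT they had 0, and 2 by DESeq2 and 0 to 1 with 1 mouse left out (*Amn* without Del3_42, adjusted p = 0.0494). Among all genes, DEGs in RC/RC against WT numbered 1971, and 1162 (without B6_6) to 2440 with 1 mouse left out. The RC/RC:*Casp1*KO mice had 1797 DEGs against RC/RC, and 3207 by DESeq2, 993 with library size alone, 1052 by limma, 19 with proximal tubule scaling, and 438 (without RC140) to 2789 with 1 mouse left out. They had 311 against WT, and 1366 by DESeq2, 167 among genes with 10 counts in every mouse, and 108 (without B6_6) to 547 with 1 mouse left out. The share of DEGs that were higher was 75.4%, 62.1% and 55.9% in the 3 comparisons, and 86.1%, 82.0% and 79.8% with library size alone, 96.8%, 84.2% and 87.7% with proximal tubule scaling, 58.4%, 60.3% and 39.7% with the length trend removed. Medians of all genes moved by over 0.1 to 0.48, -0.29 and 0.23 with proximal tubule scaling, to 0.14 with library size alone in RC/RC:*Casp1*KO against WT, and to -0.09 with the length trend removed in that comparison. *Cubn* in RC/RC against WT had an adjusted p of 0.0513 with library size alone. Signs turned with proximal tubule scaling for *Amn* (0.052), *Dab2* (0.073) and *Pth1r* (0.33) in RC/RC against WT, for *Amn* (-0.16) and *Dab2* (-0.10) when RC/RC:*Casp1*KO was compared with RC/RC, and for *Slc34a1* (0.0040) and *Slc34a3* (0.058) when it was compared with WT. With 1 mouse left out of RC/RC:*Casp1*KO and RC/RC, *Amn* ran from -0.073 (without Del3_42) to 0.19, *Dab2* from -0.0090 (without RC139) to 0.28, and *Pth1r* from -0.25 to 0.0086 (without RC143); *Amn* was also below 0 without RC105 (-0.02) or RC139 (-0.05). The causes were not tested. Sex was not fitted, since the columns do not give it.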

Other observations

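Genes of the S3 segment, the last part of the proximal tubule, differed widely between mice within every group. The summed level of 5 such genes, led by *Acy3*, was 1023, 1277, 5750 and 4434 CPM in the WT mice, 1348, 971, 3033 and 3518 CPM in the RC/RC mice and 4838, 1629, 4164 and 1308 CPM in the RC/RC:*Casp1*KO mice. In WT mice the low values were those of B6_2 and B6_3, and in RC/RC:*Casp1*KO mice those of Del3_60 and Del3_105, each of them a pair of mice with alike counts over genes. None of the 5 genes was called in any of the 3 comparisons (edgeR).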
